A study of Homo sapiens with 2 samples.

Results

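The genes described here belong to the melanocortin 1 receptor (MC1R) pathway and its cyclic AMP signal, and were chosen as a list of 39 symbols. Of these, 36 had at least 1 probe set annotated with that symbol alone, out of 19775 genes measured. Each gene was represented by its brightest probe set on average over the arrays. PDE4C shared all its probe sets with another symbol, and ATF1 and RAPGEF4 had no probe set under their own name, so these 3 genes have no value in what follows.

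Expression was measured in human melanoma cell lines on Affymetrix U133 Plus 2.0 arrays, 1 for each line. IGR37 was derived from a lymph node metastasis and IGR39 from a primary cutaneous tumour recorded as achromic, which means without pigment. Both were grown in DMEM with serum and antibiotics, and the labels list no treatment, genotype or clone. All values are log2 levels, a difference is the level in IGR37 minus that in IGR39, and 1 unit equals 2-fold. No line was measured more than once, so no test was possible, and no difference below carries a standard deviation or a p-value.

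MC1R is a receptor of the melanocyte surface. Its agonist, alpha-melanocyte-stimulating hormone, is cut from the precursor encoded by POMC, and agouti signalling protein, encoded by ASIP, antagonises it. The occupied receptor activates the stimulatory G protein, adenylyl cyclases make cyclic AMP, and cyclic AMP releases the catalytic subunits of protein kinase A from their regulatory subunits. The kinase acts on the CREB transcription factors and, through salt-inducible kinases, on the CRTC coactivators. In melanocytes this raises transcription of MITF, the lineage factor that drives pigment genes. Phosphodiesterases end the signal by degrading cyclic AMP.

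Sequences upstream of the annotated transcription starts were examined because CREB binds a defined element, the cyclic AMP response element (CRE). The RefSeq promoter table of build GRCh38.p14 held 88 windows for 33 of the 39 listed genes, and the 250 bases before each start were searched on both strands. The motifs were the CRE palindrome TGACGTCA, its core TGACG, the E-box CACGTG and the sequence CATGTG, the centre of the M-box bound by MITF. Every palindrome also contains the core. The palindrome lay in 2 of the 88 windows (2.27%), against 1.65% of all 35116 windows, and the core in 20 windows (22.7%), against 21.2%. CACGTG was found in 9 windows (10.2%, against 6.34%) and CATGTG in 8 (9.09%, against 9.42%). Windows of 1 gene can overlap, and a match describes the letters only.

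The upstream windows of MC1R, PDE3A and CRTC3 are shown because each of these genes reached log2 6, was over 3-fold higher in IGR37 and has 1 window in the table. They lie at chr16:89918612-89918861, chr12:20571829-20572078 and chr15:90529673-90529922, all on the plus strand and directly before the start that the table holds. Starts without a window were not searched. Capitals mark CATGTG in MC1R, beginning 64 bases before the start, and the core TGACG in CRTC3, beginning 181 bases before it. In the PDE3A window none of the searched motifs was found, so it has no capitals.
MC1R: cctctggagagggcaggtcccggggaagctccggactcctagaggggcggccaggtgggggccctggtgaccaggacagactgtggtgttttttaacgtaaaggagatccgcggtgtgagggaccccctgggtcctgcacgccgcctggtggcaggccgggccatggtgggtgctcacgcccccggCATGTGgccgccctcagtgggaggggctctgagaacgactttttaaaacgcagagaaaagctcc
PDE3A: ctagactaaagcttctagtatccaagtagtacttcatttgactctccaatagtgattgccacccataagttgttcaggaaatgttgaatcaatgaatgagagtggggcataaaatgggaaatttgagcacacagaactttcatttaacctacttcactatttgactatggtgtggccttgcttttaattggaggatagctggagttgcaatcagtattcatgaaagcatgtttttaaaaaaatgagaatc
CRTC3: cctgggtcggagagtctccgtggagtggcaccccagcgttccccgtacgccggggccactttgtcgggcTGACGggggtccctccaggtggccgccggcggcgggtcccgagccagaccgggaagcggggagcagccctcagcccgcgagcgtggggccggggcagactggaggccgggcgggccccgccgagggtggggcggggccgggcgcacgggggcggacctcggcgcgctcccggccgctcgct

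CRE palindromes, in capitals with 10 bases on each side, are shown for the members that held one, PRKAR1A and PDE7B, and for 5 measured cAMP-inducible genes described further on. The sites lie upstream of an annotated start of PRKAR1A (chr17:68512371-68512398, plus strand), PDE7B (chr6:135851536-135851563, plus), CREM (chr10:35195842-35195869, plus), MITF (chr3:69936430-69936457, plus), DUSP1 (chr5:172771303-172771330, minus), SST (chr3:187670424-187670451, minus) and VGF (chr7:101165631-101165658, minus).
PRKAR1A: cgaggcgcatTGACGTCAgtagccgaac
PDE7B: ctaaacccttTGACGTCActcttgaaat
CREM: agctgcacatTGACGTCAgctccgagtc
MITF: aaaaaaagcaTGACGTCAagccaggggg
DUSP1: gcagggcgggTGACGTCAccgccccgtc
SST: cctcctagccTGACGTCAgagagagagt
VGF: gaatgaacatTGACGTCAatggggcggg

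In IGR37, 9 of the 36 measured genes exceeded their IGR39 level by 2-fold or more, and 0 were lower by as much. Over all 19775 genes, 5.8% were that much higher and 4.85% that much lower. The members' median difference was 0.09, against 0.00 over all genes. A minimum of log2 6 was used to set aside dim genes, and 25 members reached it in at least 1 line. Among these 25, 7 were higher by that limit and 0 lower, where 11.4% of 8501 genes at that level were higher and 9.5% lower. MC1R and PDE3A reached the minimum through IGR37 alone, so their place in this count comes from the line where they are high. ADCY2 and PKIA, the remaining genes of the 9, were below log2 6 in both lines. In the 22 members at or above log2 6 in both lines, 5 were higher and 0 lower, beside 7.26% and 5.35% of 6931 such genes. The count of 7 depended on the scaling and on the choice of probe set. It was 4, with 1 gene lower, after centring on housekeeping genes, and 4, with 0 lower, when all probe sets of a gene were averaged.

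**Figure D1:**
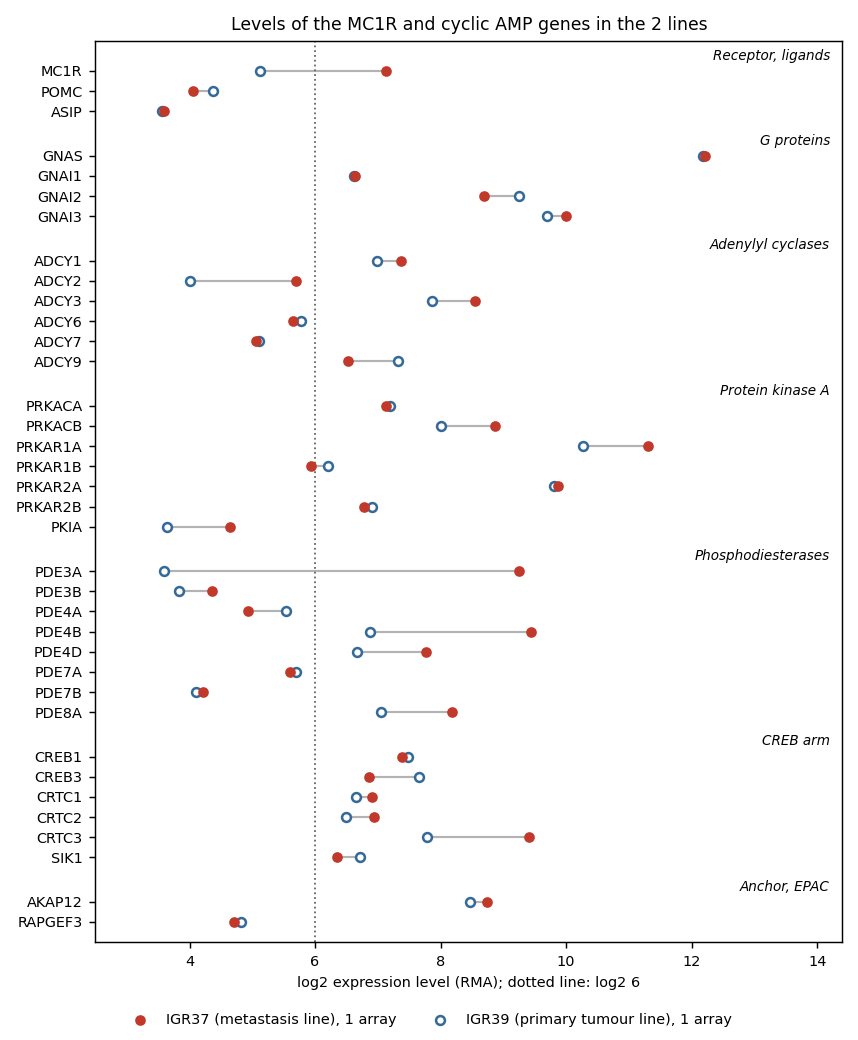
Log2 expression level (horizontal axis) of the 36 measured genes, ordered by role, with a filled point for IGR37 and an open point for IGR39, 1 array each. The longest lines are those of PDE3A, PDE4B and MC1R, with IGR37 on the right, and no gene has IGR39 more than 1 log2 unit to the right.

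Control probe sets and probe sets of the same gene gave a spread within these 2 arrays. It holds no variation between cultures of a line. Probe sets for hybridisation spike-ins differed by -0.14 to 0.21 and those for poly-A spike-ins by -0.47 to 0.68. Both kinds were picked by name, and whether these controls were added was not examined. Across 3178 genes with several probe sets at or above log2 6, the pooled SD of a gene's own differences was 0.40, and it was 0.41 in the 15 such members. Melanocyte markers stood at 10.65 to 13.05 in IGR37 and at 3.15 to 4.29 in IGR39 (5 genes, among them TYR, PMEL and MLANA), so none of them reached log2 6 in IGR39. The 8 measured immune markers lay at 3.20 to 4.33 in IGR37 and at 3.28 to 4.19 in IGR39. Of 9 fibroblast and endothelial markers 3 reached log2 6. COL1A1 was at 6.15 in IGR37 and 5.87 in IGR39, COL1A2 at 3.84 in IGR37 and 6.27 in IGR39, and LUM at 6.26 in IGR37 and 3.41 in IGR39. Of 5 keratinocyte markers 1 reached it, KRT10 at 9.08 in IGR37 and 9.13 in IGR39. The 20 housekeeping genes used for centring had a median difference of 0.20, and 3 of them were past 2-fold, all higher in IGR37. The part of the melanocyte state in the differences below was not tested, and in such bulk RNA fewer cells expressing a gene and less RNA per cell cannot be told apart.

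The receptor gene was higher in IGR37, while its ligand genes were dim in both lines. MC1R was at 7.12 in IGR37 and 5.12 in IGR39 on its only probe set, a difference of 2.00, or 4.01-fold. It ranked 663rd by absolute difference among the 8501 genes at or above log2 6. POMC, the precursor of the agonist, was at 4.05 in IGR37 and 4.37 in IGR39. ASIP, the antagonist, was at 3.59 in IGR37 and 3.57 in IGR39. Both ligand genes lay close to the levels of the immune markers, so neither stood clear of background in either culture.

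The G protein genes lay within 2-fold. GNAS, which encodes the stimulatory alpha subunit that couples MC1R to the cyclases, was at 12.20 in IGR37 and 12.18 in IGR39. Of its 12 probe sets, 7 reached log2 6 and differed by -0.20 to 0.03. Most of these 7 end in _x_at, a mark of possible cross-hybridisation, and the locus also makes overlapping transcripts from other promoters. For the inhibitory alpha subunits, GNAI1 was at 6.64 in IGR37 and 6.62 in IGR39 and GNAI3 at 10.00 in IGR37 and 9.69 in IGR39. GNAI2 was at 8.69 in IGR37 and 9.25 in IGR39, a difference of -0.56, with no second probe set to set beside it. Its size is above the pooled SD between probe sets, 0.40, but below the 0.68 reached by probe sets for poly-A spike-ins.

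Adenylyl cyclases, the enzymes that form cyclic AMP, divided without passing 2-fold among those at log2 6. ADCY3 was at 8.55 in IGR37 and 7.86 in IGR39, which is 0.69 apart, and its other probe set gave 0.20. ADCY1, a calcium-stimulated cyclase, was at 7.38 in IGR37 and 6.98 in IGR39, which is 0.39 apart, and its other probe set at log2 6 gave 0.80. ADCY9 went the other way, at 6.53 in IGR37 and 7.32 in IGR39, with differences of -0.79 and -0.47 on its probe sets at this level. The remaining cyclases were dim in both lines. ADCY2 stood at 5.69 in IGR37 and 4.0 in IGR39, and its 3 probe sets differed by 0.06 to 1.69. ADCY6 was at 5.65 in IGR37 and 5.77 in IGR39. ADCY7 was at 5.06 in IGR37 and 5.11 in IGR39 on its brighter probe set, and the dimmer probe set differed by -1.44, so the size rests on the probe set taken.

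Among the genes of protein kinase A, 1 regulatory and 1 catalytic subunit stood apart from the rest. PRKAR1A, the main regulatory subunit of the type I enzyme, was at 11.30 in IGR37 and 10.27 in IGR39, a difference of 1.03. Its 3 probe sets at log2 6 differed by 0.95 to 1.46, and the dim one by 0.31. Among its annotated starts, 1 carries the CRE palindrome shown above, beginning 49 bases before the start. PRKACB, a catalytic subunit, was at 8.87 in IGR37 and 8.01 in IGR39, with differences of 0.86 and 1.0 on its probe sets at that level. After centring on housekeeping genes these differences were 0.83 for PRKAR1A and 0.66 for PRKACB. The other catalytic gene, PRKACA, was at 7.13 in IGR37 and 7.19 in IGR39.

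The type II regulatory subunits and PRKAR1B were close in the lines. PRKAR2A was at 9.88 in IGR37 and 9.80 in IGR39, PRKAR2B at 6.78 in IGR37 and 6.91 in IGR39, and PRKAR1B at 5.94 in IGR37 and 6.21 in IGR39. PKIA, a peptide inhibitor of the free catalytic subunit, was at 4.65 in IGR37 and 3.64 in IGR39, dim in both, with 0.44 on its other probe set.

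Phosphodiesterases held the members that differed most. PDE3A, a cyclic nucleotide phosphodiesterase inhibited by cyclic GMP, was at 9.25 in IGR37 and 3.60 in IGR39. The difference of 5.65 ranked 38th of 8501 genes. All 4 of its probe sets were higher in IGR37, by 1.63 to 5.65, and in IGR39 each was below log2 4, so the size rests on a level near background. Leaving the dim probe set in and averaging the 4 gave 3.66.

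PDE4B, a cyclic AMP-specific enzyme, was expressed in both lines, at 9.44 in IGR37 and 6.87 in IGR39. Its difference was 2.57, or 5.93-fold, and its other probe set at this level gave 2.68. PDE8A, a high-affinity cyclic AMP-specific enzyme, was at 8.17 in IGR37 and 7.05 in IGR39. Its 3 probe sets at log2 6 differed by 1.12 to 1.61. PDE4D, reported in melanocytes as a target of MITF, was at 7.77 in IGR37 and 6.67 in IGR39, a difference of 1.10 on the 1 probe set of 6 that reached log2 6. With the housekeeping centring PDE8A and PDE4D stood at 0.92 and 0.90, higher in IGR37 but under 2-fold, and the mean over all probe sets put PDE4D at 0.56.

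The other phosphodiesterases among the members were below log2 6 in both lines. PDE3B was at 4.36 in IGR37 and 3.83 in IGR39, PDE4A at 4.93 in IGR37 and 5.54 in IGR39, and PDE7A at 5.59 in IGR37 and 5.70 in IGR39. PDE7B, whose start also has a CRE palindrome, was at 4.22 in IGR37 and 4.11 in IGR39. Of the 8 phosphodiesterase members measured, 4 were thus past the 2-fold limit with IGR37 higher, beside 5.8% of all genes, and the other 4 differed by -0.61 to 0.53. PDE3A reached log2 6 through IGR37 alone.

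**Figure D2:**
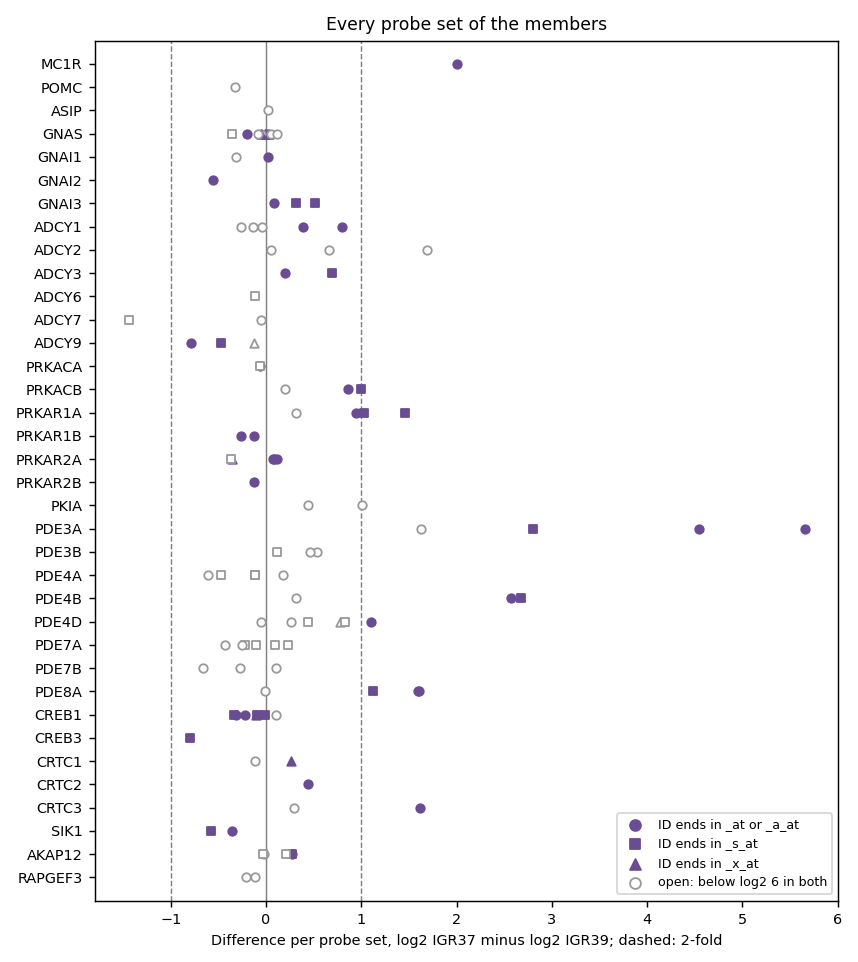
Difference of every probe set of the members, log2 IGR37 minus log2 IGR39 (horizontal axis), 1 row per gene, with filled marks where the brighter line reached log2 6, open marks below it, and shapes for the ending of the probe set ID. PDE3A, PDE4B and PDE8A have all filled marks beyond the dashed 2-fold line, PRKAR1A has marks on both sides of it, and the filled marks of GNAS and CREB1 lie close to 0.

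On the transcriptional arm the coactivator CRTC3 differed most. CRTC3, which binds CREB and moves to the nucleus when salt-inducible kinases are inhibited, was at 9.41 in IGR37 and 7.79 in IGR39. The difference of 1.62, or 3.08-fold, comes from its only probe set at log2 6, and the dim probe set gave 0.30. CRTC1 was at 6.91 in IGR37 and 6.65 in IGR39, and CRTC2 at 6.93 in IGR37 and 6.49 in IGR39. The factors themselves differed little or were lower. CREB1 was at 7.39 in IGR37 and 7.48 in IGR39, and its 6 probe sets at that level differed by -0.33 to -0.01. CREB3, a membrane-bound relative released by proteolysis, was at 6.85 in IGR37 and 7.65 in IGR39, a difference of -0.80 that became -1.0 after centring on housekeeping genes. SIK1, a kinase that is itself induced by CREB and holds CRTC proteins in the cytoplasm, was at 6.35 in IGR37 and 6.71 in IGR39, with -0.58 on its other probe set. RefSeq lists a copy of this gene, SIK1B, which these probe sets may not separate.

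Outside the kinase arm, AKAP12, an anchoring protein for protein kinase A, was at 8.74 in IGR37 and 8.47 in IGR39, and both its probe sets at log2 6 differed by 0.27. RAPGEF3, which encodes the cyclic AMP-activated exchange factor EPAC1 for the GTPase RAP1, was dim, at 4.71 in IGR37 and 4.82 in IGR39.

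Probe sets of the same member mostly pointed the same way. Of the 15 members with several probe sets at or above log2 6, 13 had all of these differing in 1 direction. The exceptions were GNAS and PRKAR2A, which differed by -0.20 to 0.03 and by -0.36 to 0.12. All 4 such members past 2-fold were in 1 direction, and in 3 of them (PDE3A, PDE4B and PDE8A) every probe set at that level was past 2-fold. These 4 were called from 1 of the same probe sets, and all were read on the same 2 arrays, so the agreement is no replication. The share over all 3178 genes with several such probe sets was not counted.

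**Figure D3:**
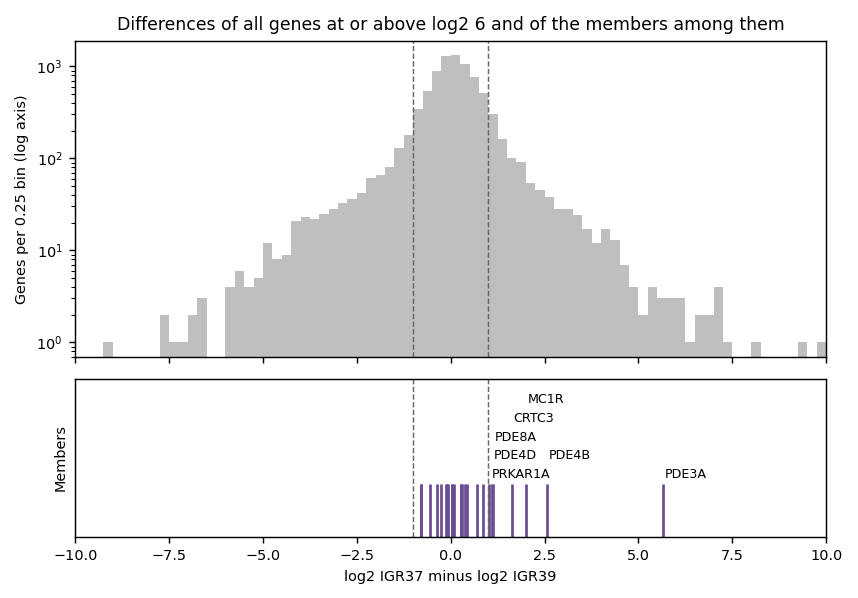
Differences of the 8501 genes at or above log2 6 in bins of 0.25 on a log count axis (upper panel) and of the 25 members among them (lower panel, 1 tick per gene), as log2 IGR37 minus log2 IGR39, with dashed lines at 2-fold. The members run from -0.80 to 5.65, and the 7 beyond the right-hand line are labelled.

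Genes known to be induced by cyclic AMP through CREB were examined as a list of 18, of which 16 were measured and 12 reached log2 6. This list, and those of receptors and further components below, were chosen with earlier results of these data known. Their counts are descriptions only. Of the 16, IGR37 was 2-fold or more higher at 6 and lower at 2, beside 5.8% and 4.85% of all genes. All 8 are among the 12, where the shares of all genes are 11.4% and 9.5%, and 5 of the 8 reached log2 6 only in the line where they are high. The median difference over the 16 was 0.68, against 0.00 over all genes. CREM, whose internal promoter makes the repressor ICER, was at 9.15 in IGR37 and 5.08 in IGR39. Its 4 probe sets at that level differed by 0.97 to 4.06. The palindrome shown for CREM begins 50 bases before 1 of its downstream starts. MITF was at 11.81 in IGR37 and 7.57 in IGR39, with 4.97 on its other probe set. FOS, an AP-1 subunit, was at 8.23 in IGR37 and 5.60 in IGR39. Of the orphan nuclear receptors, NR4A2 was at 6.79 in IGR37 and 4.22 in IGR39, and NR4A3 at 8.55 in IGR37 and 6.23 in IGR39. NR4A1 stayed within 2-fold, at 6.62 in IGR37 and 6.00 in IGR39, with 1.44 on its other probe set at log2 6. With IDs in _x_at and _s_at left out, 3 genes of the list were higher in place of 6.

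Members of the same list also ran the opposite way. The neuropeptide precursor gene SCG2 was at 3.93 in IGR37 and 9.43 in IGR39, and the neurotrophin gene BDNF at 3.55 in IGR37 and 7.42 in IGR39. DUSP1, VGF and SST, which have a CRE palindrome, stayed within 2-fold. DUSP1, a phosphatase of MAP kinases, was at 6.30 in IGR37 and 7.02 in IGR39, and its dim probe sets differed by -0.18 and 0.40. VGF, another neuropeptide precursor gene, was at 6.34 in IGR37 and 5.60 in IGR39. SST, the somatostatin gene in which the element was described, was dim, at 3.27 in IGR37 and 3.21 in IGR39. The palindrome lay in 6 of the 31 windows of this list (19.4%, against 1.65% of all windows), a list picked for known CREB targets. The 6 include a window of AREG, a listed gene that was not measured. Many of these genes respond to other signals too, and which signal acted was not tested.

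Of 22 other measured receptors that act on or against the cyclases, 4 lay 2-fold or more lower in IGR37 and 1 higher, beside 4.85% and 5.8% of all genes. These 5 are among the 7 that reached log2 6, where 9.5% of all genes were lower and 11.4% higher, and 4 of the 5 reached it only in the line where they are high. The stimulatory prostaglandin receptor PTGER4 was at 2.97 in IGR37 and 6.88 in IGR39. VIPR1, a receptor for vasoactive intestinal peptide, was at 4.35 in IGR37 and 8.24 in IGR39. The adenosine receptor ADORA2B was at 8.29 in IGR37 and 9.81 in IGR39. LPAR1, a lysophosphatidic acid receptor that couples to inhibitory G proteins among others, was at 3.57 in IGR37 and 8.05 in IGR39. GPR161, an orphan receptor of the primary cilium, was the gene at least 2-fold higher, at 7.33 in IGR37 and 5.53 in IGR39, with 0.72 on its other probe set at that level. The remaining melanocortin receptors, MC2R to MC5R, were below log2 6 in both lines.

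**Figure D4:**
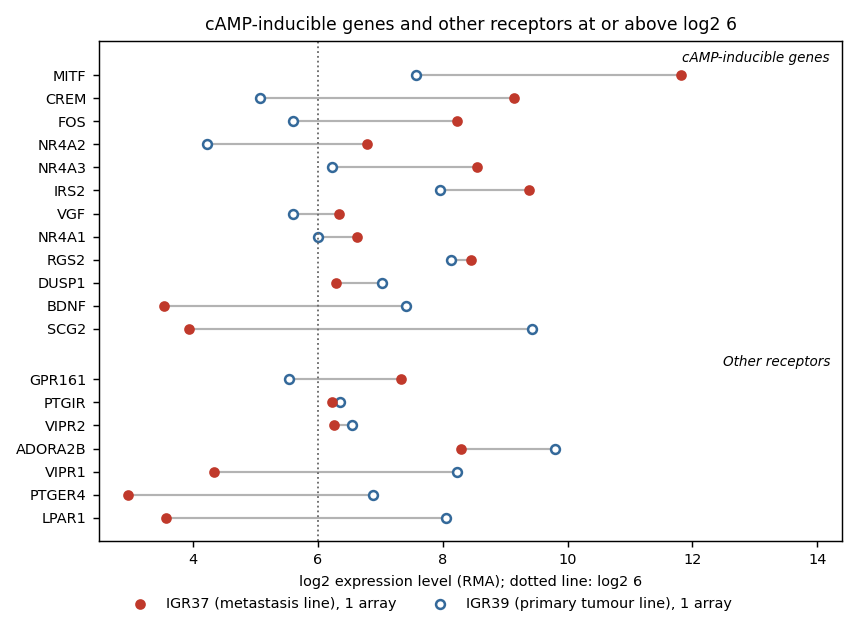
Log2 expression level (horizontal axis) of the 12 cAMP-inducible genes and 7 other receptors at or above log2 6, filled for IGR37 and open for IGR39, 1 array each, ordered by difference within each list. In the upper list 6 genes have IGR37 at least 1 unit to the right and 2 at least 1 unit to the left, and in the lower list the counts are 1 and 4.

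In a list of 50 further components of the pathway, 46 were measured and 26 reached log2 6. Past the 2-fold limit, 1 of these 26 was higher in IGR37 and 3 were lower, which left 22 under it, beside 11.4% and 9.5% of all genes at that level. Of these 4, 3 reached log2 6 in 1 line only. RAP1GAP, which inactivates RAP1, was at 7.96 in IGR37 and 4.48 in IGR39, and RAP1B, a form of RAP1, at 9.41 in IGR37 and 10.99 in IGR39. RAP1A, another form, went the other way within 2-fold, at 8.67 in IGR37 and 8.07 in IGR39. AKAP9, a large anchoring protein of the Golgi and centrosome, was at 5.44 in IGR37 and 6.94 in IGR39. PDE1C, a calmodulin-dependent phosphodiesterase, was at 4.49 in IGR37 and 6.28 in IGR39, and its 3 probe sets at that level differed by -3.56 to -1.79. The median difference over the 46 was -0.05. Without a minimum 5 of them were higher in IGR37, and after centring on housekeeping genes 5 were lower.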

How the data were processed

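Total RNA was extracted with TRIzol, and biotin-labelled cRNA was hybridised to 1 array per line, per the labels' protocols. The authors deposited log2 levels for each probe set, computed with RMA (affy) per the submitters' processing notes, with versions not stated there. RMA equalises the arrays' distributions, so an overall difference in brightness is removed, and it compresses differences between low levels.

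Gene names came from the platform annotation and were brought up to date by gene identifier through RefSeq GRCh38.p14. Of 54675 probe sets, 41091 had 1 symbol, and 41037 identifiers matched. The 1801 with several symbols and the 11721 unnamed here were left out. The probe set with the highest mean was kept per gene, and a gene counted as higher or lower at a log2 difference of at least 1. Alternatives were minimums of log2 5 and 7 or none, the mean over probe sets, leaving out IDs ending in _x_at or _s_at, and 3 rescalings (array medians, a lowess trend with span 0.3, housekeeping genes).

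Members and lists were chosen with earlier results of these data known. Every measured member is named, with up to 4 genes per other list past 2-fold and MITF. GPR161, SCG2, BDNF, NR4A1, IRS2 and RAP1A were named beyond this rule after their values were seen, and DUSP1, VGF and SST for their sites. The 2-fold limit was tried on simulated levels with known shifts, and the choice of probe set on a made-up gene. The rescalings, the minimums and the motif search were not tried in this way. Software was Python 3.11.15, statsmodels 0.14.6, numpy 2.4.6, pandas 2.3.3 and matplotlib 3.10.9. The number of arrays limits the precision.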

Additional observations from a re-analysis of the deposited data

How the results depend on the processing

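With 1 array per line no array could be left out, and the precision across cultures is unknown. No paired analysis was possible because each line has a single array. Of 214 recomputed differences of single members, 206 moved by less than the pooled SD between probe sets of a gene, 0.40, and 8 by more. None of the differences past 2-fold changed sign. Centring on array medians shifts differences by 0.018 and on housekeeping genes by -0.20. Differences under these settings could therefore not move past that SD, and the 206 include them. All 8 came from averaging probe sets or from leaving out IDs ending in _x_at or _s_at. The count of 7 members at least 2-fold higher became 4 when probe sets were averaged and 4 after centring on housekeeping genes, where 1 was lower. That centring shifts every difference by -0.20 by construction. The median difference over measured members, 0.09 as reported, came to -0.015 when probe sets were averaged and to -0.11 with housekeeping centring. Over members at or above the minimum the median was 0.27 as reported, 0.17 at log2 5, 0.39 at log2 7, 0.090 without a minimum and 0.072 with housekeeping centring. Among the further components, 1 was higher as reported, 4 at a minimum of log2 5, 5 without one, 3 with arrays centred on their medians and 2 after lowess. The 3 lower became 1 at log2 7, 1 with the mean over probe sets, 1 without IDs ending in _x_at or _s_at and 5 with housekeeping centring. Leaving out those IDs gave 3 cAMP-inducible genes higher in place of 6, since NR4A2 and IRS2 then have no probe set and CREM differs by 0.97, and 11 genes past 2-fold over the 3 further lists in place of 17. The other causes were not tested.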

Other observations

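The phosphodiesterase family was also taken as a whole by symbol, a choice made after the data were seen. Of 20 family genes measured, 8 reached log2 6, with 4 of these past 2-fold and higher in IGR37 and 1 lower, beside 11.4% and 9.5% of all genes at that level. PDE3A and PDE1C reached it in 1 line only. The 4 are the PDE3A, PDE4B, PDE4D and PDE8A genes described above, and the lower gene is PDE1C. Of the 8, 3 lay within 2-fold. PDE5A, which degrades cyclic GMP, was at 6.40 in IGR37 and 6.24 in IGR39, PDE9A, which also degrades it, at 6.37 in IGR37 and 5.89 in IGR39, and PDE6D, which carries prenylated proteins, at 7.72 in IGR37 and 7.06 in IGR39. PDE10A, which degrades both nucleotides, was dim, at 4.72 in IGR37 and 3.05 in IGR39.

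The probe sets annotated to both PDE4C and CIST1 entered no value of a gene. The brightest of these 4, which ends in _x_at, was at 7.93 in IGR37 and 7.93 in IGR39. The others lay between 3.22 and 5.03 in IGR37 and between 3.11 and 5.19 in IGR39.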
